A study of Homo sapiens with 12 samples.

Results

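The 39 HOX genes of the human HOXA, HOXB, HOXC and HOXD clusters were followed in 2 lung cancer cell lines with and without PA200. They were taken by symbol, as every row named HOXA, HOXB, HOXC or HOXD followed by digits, from tables of 59050 gene symbols. RNA came from A549, a lung adenocarcinoma line, and from NCI-H1299 (H1299), a non-small cell lung carcinoma line without functional p53. Cells were wild type or carried a CRISPR/Cas9 knockout of PSME4, the gene for PA200, a nuclear cap of the 20S proteasome core. The 4 groups (A549 wild type, A549 knockout, H1299 wild type, H1299 knockout) had 3 poly-A RNA libraries each, and all 12 came from cells cultured for 48 hours with no other treatment named. The labels do not say whether a knockout group is 1 clone or several, or whether its libraries are separate cultures, and a p-value here speaks only of library-to-library spread, which may be technical.

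HOX genes encode homeodomain transcription factors that give body segments their identity along the head-to-tail axis. In each cluster the genes lie in the order in which they are used, from the anterior paralogs with low numbers to the posterior paralogs with high numbers, and genes with the same number in different clusters are paralogs. Retinoic acid opens the anterior genes, Polycomb complexes keep unused genes silent through histone marks, Trithorax complexes keep used genes active, and CTCF and cohesin divide the clusters into domains. In the adult lung, genes of the middle and anterior HOXA and HOXB paralogs such as HOXA5, which is needed for lung development in mice, remain in use, and altered HOX patterns are common in lung tumours.

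In GENCODE 29 (GRCh38) the HOXA cluster holds 11 of the genes on the minus strand of chromosome arm 7p, and HOXB holds 10 on the minus strand of chr17:48528526-48729178. The HOXC cluster holds 9 genes on the plus strand of chr12:53938765-54056030, and HOXD holds 9 on the plus strand of chr2:176092891-176190907. HOXB13 stands 98.4 kb away from HOXB9, the widest gap between annotated neighbours in the 4 clusters. Exonic bases are shared with another gene in 25 of the 39 genes and with a gene on the opposite strand in 19 of them. The libraries were made with a stranded kit, but the strand setting of the counting is not given in the sources used here, so a HOX gene and its overlapping neighbour cannot be fully told apart.

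The sequences below are the 250 bases before the RefSeq start site of cluster genes on which the results turn. HOXD8 and its neighbour HOXD-AS2, and HOXB-AS1 at the anterior end of HOXB, were lower in the H1299 knockout. HOXB-AS3, which overlaps HOXB6, had a different knockout effect in the 2 lines, and HOXA9 and HOXD10 separated the lines. They were read from a RefSeq table of GRCh38.p14 at chr2:176129455-176129704 (plus strand, HOXD8), chr2:176137099-176137348 (minus, HOXD-AS2), chr17:48544101-48544350 (plus, HOXB-AS1), chr17:48595708-48595957 (plus, HOXB-AS3), chr7:27165538-27165787 (minus, HOXA9) and chr2:176116528-176116777 (plus, HOXD10). Capitals mark a match on either strand to the TATA box (letters TATAAA), the CCAAT box (letters CCAAT), the GC box (letters GGGCGG), the E-box (letters CACGTG), the composite motif of HOX with PBX proteins (letters TGATTNAT) or the motif of retinoid receptors (letters AGGTCA). No 2 matches overlapped in these windows.
HOXD8: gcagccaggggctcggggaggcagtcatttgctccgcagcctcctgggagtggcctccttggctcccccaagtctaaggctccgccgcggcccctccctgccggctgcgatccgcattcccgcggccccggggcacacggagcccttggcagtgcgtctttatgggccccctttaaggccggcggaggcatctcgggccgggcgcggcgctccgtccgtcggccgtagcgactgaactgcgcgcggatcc
HOXD-AS2: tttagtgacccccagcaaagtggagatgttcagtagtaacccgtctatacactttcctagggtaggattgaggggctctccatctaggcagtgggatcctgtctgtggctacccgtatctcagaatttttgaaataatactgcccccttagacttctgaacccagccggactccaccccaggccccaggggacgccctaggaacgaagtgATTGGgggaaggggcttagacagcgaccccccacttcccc
HOXB-AS1: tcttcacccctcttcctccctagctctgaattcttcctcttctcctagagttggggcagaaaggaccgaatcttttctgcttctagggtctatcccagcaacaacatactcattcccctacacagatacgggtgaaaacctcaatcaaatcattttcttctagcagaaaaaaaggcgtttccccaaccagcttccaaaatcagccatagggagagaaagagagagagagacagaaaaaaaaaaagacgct
HOXB-AS3: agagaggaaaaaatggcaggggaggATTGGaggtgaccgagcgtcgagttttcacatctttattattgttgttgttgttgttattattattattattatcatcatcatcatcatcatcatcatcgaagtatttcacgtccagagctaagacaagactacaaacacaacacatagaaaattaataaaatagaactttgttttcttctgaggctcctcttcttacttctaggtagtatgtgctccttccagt
HOXA9: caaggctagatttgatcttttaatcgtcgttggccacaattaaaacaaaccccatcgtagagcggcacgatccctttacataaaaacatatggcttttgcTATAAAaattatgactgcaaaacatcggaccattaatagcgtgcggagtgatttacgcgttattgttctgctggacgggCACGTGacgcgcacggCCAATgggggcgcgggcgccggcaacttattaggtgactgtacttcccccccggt
HOXD10: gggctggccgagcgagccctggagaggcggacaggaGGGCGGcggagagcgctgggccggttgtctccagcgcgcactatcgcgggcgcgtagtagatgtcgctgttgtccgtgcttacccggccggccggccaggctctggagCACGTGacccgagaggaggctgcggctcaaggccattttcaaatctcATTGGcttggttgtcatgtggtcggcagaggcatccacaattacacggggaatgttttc

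The HOXA9 window held a TATA box, an E-box and a CCAAT box, and the HOXD10 window held a GC box, an E-box and a CCAAT box. HOXD-AS2 and HOXB-AS3 each held a CCAAT box, and the HOXD8 and HOXB-AS1 windows held none of the 6 motifs. Among all 35114 windows of that length, the TATA box occurred in 10.7%, the CCAAT box in 32%, the GC box in 42.6%, the E-box in 6.35%, the HOX and PBX motif in 2.48% and the retinoid receptor motif in 12.1%. Base composition separated these windows: GC content was 72.4% before HOXD8 and 36% before HOXB-AS3, and the ratio of observed to expected CpG was 1.34 before HOXA9 and 0.321 before HOXD-AS2, against a median of 0.558 over all windows. Of the 39 genes, 20 had a window in the table, and their 27 windows had a median CpG ratio of 0.888. Those without one included HOXA5, HOXB2 to HOXB9, HOXB13, HOXC6, HOXC8 to HOXC13 and HOXD9. These matches are descriptions of letters, not of bound sites.

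The libraries held between 16599401 and 40983933 counts, and in A549 the 3 knockout libraries were the 3 deepest. PSME4 fell to 20.6 ± 3.25 from 178 ± 30.9 CPM (counts scaled to a common library size; SD, n = 3) in A549 and to 51.8 ± 2.3 from 238 ± 20.1 CPM in H1299. Keratin and vimentin transcripts were abundant: 11 lung and epithelial markers summed to between 3730 and 6291 CPM in A549 wild type, 6216 and 6689 in A549 knockout, 2539 and 3058 in wild-type H1299, and 2191 and 2318 in its knockout. Most of the H1299 sums was vimentin: VIM had 2755, 2662 and 2283 CPM in wild type there and 2027, 2059 and 2134 CPM in knockout. KRT18 lay between 94.25 and 258.8 CPM in H1299, and KRT8 between 36.49 and 136.5 CPM. The epithelial markers EPCAM, CDH1 and KRT19 did not pass 0.201 CPM in any H1299 library, and CDH2 had no count there. In H1299, 3 of the 4 tested markers (KRT8, KRT18 and VIM) were lower in the knockout, and in A549 1 of 8 (KRT19) was higher. The part of these markers in the HOX results was not tested. NKX2-1, SFTPB and SFTPC, which mark alveolar and airway cells of the lung, did not pass 0.1 CPM in any library, whereas NAPSA, another alveolar marker, lay between 0.518 and 1.78 CPM in all 12. Among blood cell markers PTPRC, CD3E and HBB had no count, and CD14 lay between 0.821 and 2.77 CPM in A549. The A549 wild-type libraries differed among themselves, with a chi-square per degree of freedom over gene counts of 41.1 between libraries 1 and 2, 58 between 1 and 3, and 26.6 between 2 and 3, so that library 1 was the farthest from the others. Single genes did not all follow that order: in EPCAM (1.51, 2.16 and 4.93 CPM) and KRT8 (2468, 2271 and 1384 CPM) library 3 was the farthest. Genes on chromosome arm 2q, which carries HOXD, were lower in A549 knockout by a median deviation of -0.452 on the log2 scale. The shift was not particular to the HOXD arm: on 2p, which carries PSME4, it was -0.467. It was 0.057 on 7p (HOXA), -0.013 on 17q (HOXB) and 0.017 on 12q (HOXC). In H1299 no HOX arm shifted by more than 0.073 in size.

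Both lines used a broad part of the HOX repertoire, led by HOXB genes. A mean of at least 1 CPM was reached by 24 of the 39 genes in A549 wild type, 25 in A549 knockout, 24 in wild-type H1299 and 24 in its knockout, and 29 genes reached it in at least 1 group. On the scale of CPM per kb of exon, A549 wild type was led by HOXB9 (9.38 ± 1.23, SD, n = 3), HOXB7 (8.99 ± 1.35), HOXC13 (8.39 ± 5.17) and HOXB8 (6.58 ± 1.84). The spreads of these 4 genes met each other's means or nearly so, and their order changed with the length measure used. In H1299 wild type, HOXB7 (22.3 ± 2.78 CPM per kb) and HOXB2 (19.7 ± 1.99) lay above HOXB9 (9.81 ± 1.01), HOXB4 (9.41 ± 0.213) and HOXC8 (8.27 ± 1.3). HOXB gave 50.9% of the summed HOX CPM per kb in A549 wild type and 62.3% in H1299 wild type, HOXC gave 25.6% and 19.2%, HOXA 18.6% and 16.2%, and HOXD 5% and 2.4%.

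**Figure D1:**
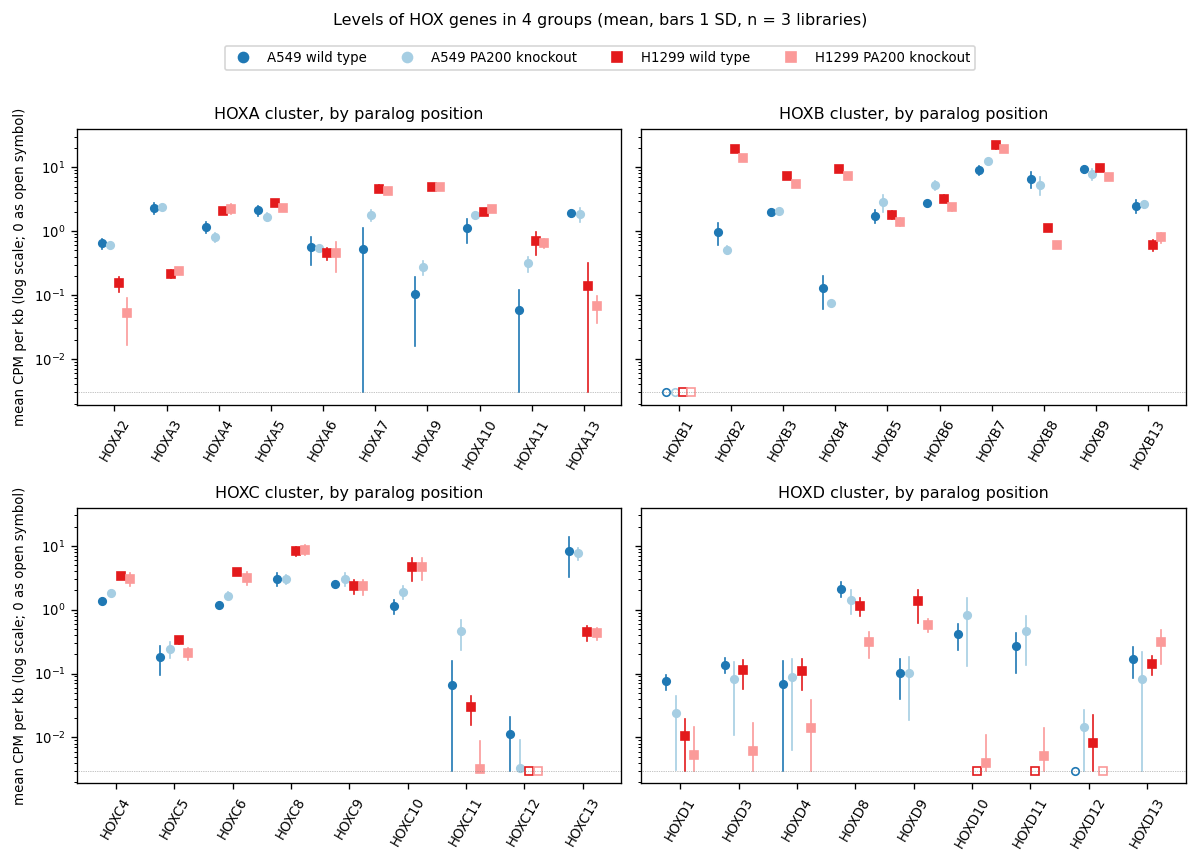
Mean CPM per kb of exon (log scale) of the HOX genes reported in the 4 groups, arranged by cluster and paralog position; bars are 1 SD over 3 libraries (cut at the dotted line), and open symbols stand for genes without a count. HOXB2 and HOXB4 are high in H1299 and low in A549, while HOXC13, HOXB8 and HOXD10 are higher in A549.

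In H1299 the loss of PA200 went with lower RNA from most of the HOXB cluster and from HOXD8. Of 29 HOX genes tested, 6 fell and 0 rose at an edgeR adjusted p under 0.05, beside 8.84% of all genes called, 4.18% lower and 4.66% higher. At an unadjusted p under 0.05 there were 10 HOX genes of the 29, beside 25.1% of all genes. The HOXB cluster held 5 of the 6 (HOXB2, HOXB3, HOXB4, HOXB8 and HOXB9), 8 of its 9 tested genes had a fold change below 0, and its median log2 fold change was -0.40 against -0.003 over all genes tested. Summed HOXB RNA was 207, 220 and 208 CPM in the wild-type libraries and 164, 156 and 167 CPM in the knockout libraries. The groups did not overlap, and centring each chromosome arm left the same 6 calls, with a HOXB median of -0.38. In bulk RNA, fewer cells that express a gene and less RNA per cell cannot be told apart.

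The anterior HOXB genes, which pattern the hindbrain and are the retinoic acid-responsive end of the cluster, fell by similar amounts. HOXB2 had 48.4, 48.8 and 40.6 CPM in wild type and 30.5, 32.2 and 34.7 CPM in knockout. The groups did not overlap, all knockout values being lower, with a log2 fold change of -0.50 ± 0.09 (SE; edgeR adjusted p = 0.0137). HOXB3 had 53.4, 55.9 and 54.5 CPM against 42.7, 38.5 and 43.2 CPM, and HOXB4, known for expanding blood stem cells when overexpressed, had 34.4, 35.9 and 35.7 CPM against 28.2, 26.7 and 26.8 CPM. Neither gene's groups overlapped. Their log2 fold changes were -0.40 ± 0.08 (SE; edgeR adjusted p = 0.0153) and -0.38 ± 0.08 (SE; edgeR adjusted p = 0.0196). HOXB-AS1, an antisense RNA over parts of HOXB2 and HOXB3, moved from 18.8, 19.7 and 18.8 CPM to 15.6, 13.2 and 15.2 CPM and also fell, by -0.38 ± 0.10 (log2, SE; edgeR adjusted p = 0.047).

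The posterior pair next to the wide gap showed the same direction. HOXB8, used in early blood progenitors and in the trunk, had 2.48, 2.35 and 2.09 CPM in H1299 wild type and 1.36, 1.20 and 1.13 CPM in knockout, without overlap. Its log2 fold change of -0.91 ± 0.18 (SE; edgeR adjusted p = 0.0179) was the largest fall in the cluster. HOXB9 had 24.5, 28.3 and 23.2 CPM against 17.6, 18.2 and 18.8 CPM and a log2 fold change of -0.48 ± 0.10 (SE; edgeR adjusted p = 0.0201), again without overlap. Between these calls, HOXB5 (4.13, 3.15 and 3.73 against 3.14, 2.39 and 3.14 CPM) and HOXB6 (8.36, 7.37 and 9.51 against 7.16, 5.90 and 5.61 CPM) also had every knockout library below every wild-type library. They did not pass the test, with log2 fold changes of -0.33 (edgeR adjusted p = 0.27) and -0.43 (edgeR adjusted p = 0.114). HOXB7, the most abundant per kb of exon, overlapped at 29.1, 36.5 and 36.5 against 30.6, 28 and 31.4 CPM. HOXB13, a prostate and hindgut gene on the far side of the gap, was the one tested HOXB gene with a positive value: 2.58, 1.75 and 2.09 against 3.34, 2.47 and 2.51 CPM, overlapping, log2 fold change 0.38 (edgeR adjusted p = 0.284).

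In 1 fit over all 12 libraries, where the 4 groups share an estimate of spread, only HOXD8 remained called among these 6 genes. Leaving out single H1299 libraries gave between 2 and 7 HOX calls, with 2 without knockout library 2. HOXB3, HOXB4, HOXB8 and HOXB9 each lost the call without knockout library 2 or without knockout library 3, HOXB9 also without knockout library 1, and HOXB3 and HOXB4 also without wild-type library 3.

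**Figure D2:**
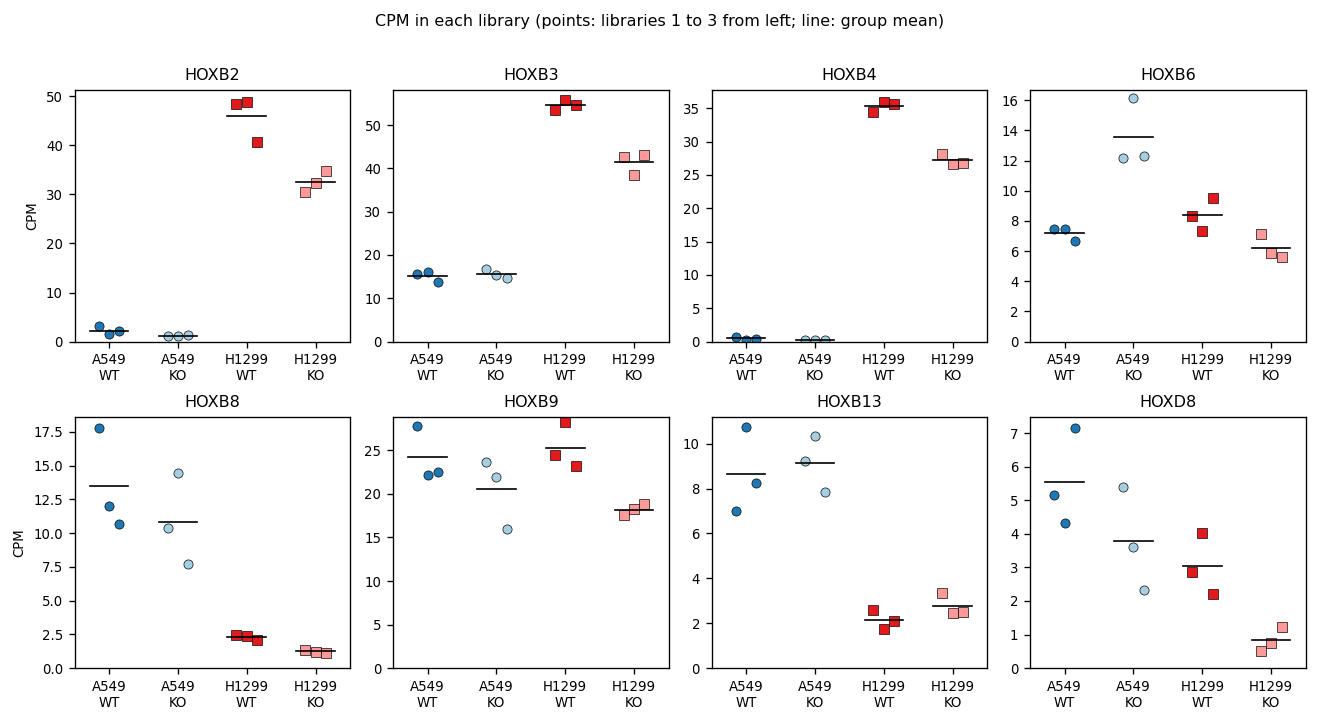
CPM (linear scale) of 8 HOX genes in each of the 12 libraries, 3 per group from left to right, with the group mean as a line. HOXB2, HOXB3, HOXB4, HOXB8, HOXB9 and HOXD8 are lower in every H1299 knockout library than in any H1299 wild-type library, HOXB6 is higher in every A549 knockout library, and HOXB13 overlaps in both lines.

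The HOXD cluster, which patterns limbs, digits and the urogenital tract with its posterior genes, was the least expressed and showed the steepest fall. HOXD8 had 2.87, 4.04 and 2.22 CPM in H1299 wild type and 0.518, 0.742 and 1.22 CPM in knockout. The groups did not overlap, and the log2 fold change was -1.88 ± 0.32 (SE; edgeR adjusted p = 0.0114), a call kept in all 14 alternatives tried. HOXD-AS2, whose start lies downstream of HOXD8 and which shares exonic bases with HOXD3, had 1.39, 1.78 and 0.889 CPM against 0.0971, 0.206 and 0.439 CPM. It fell as well, with a log2 fold change of -2.43 ± 0.45 (SE; edgeR adjusted p = 0.014). HOXD9 moved from 1.69, 4.07 and 1.78 CPM to 1.13, 0.825 and 1.32 CPM without overlap but missed the threshold at -1.21 ± 0.36 (log2, SE; edgeR adjusted p = 0.072). It was called with no low-count filter, by DESeq2, and without wild-type library 1. The next anterior genes were too sparse for the filter. HOXD3 had 37 counts over the wild-type libraries and 2 over the knockout libraries, a depth-adjusted ratio of 18.4 (95% counting interval 4.74 to 157), and HOXD4 had 15 and 2, a ratio of 7.45 (1.73 to 67.1); both intervals cover counting error only. HOXD13, at the posterior end, had 0.397, 0.201 and 0.356 CPM in wild type and 0.324, 0.701 and 1.1 CPM in knockout, overlapping, with a log2 fold change of 1.18 (edgeR adjusted p = 0.162).

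No HOXA or HOXC gene was called in H1299. None of 10 tested HOXA genes and none of 7 tested HOXC genes passed the edgeR test, with 0 and 1 of them at an unadjusted p under 0.05. Summed HOXA RNA was 49.6, 52.8 and 47.7 CPM in wild type and 46.7, 48.4 and 49.5 CPM in knockout, and summed HOXC RNA was 57.8, 60.3 and 46.6 against 55.5, 38.8 and 61.9 CPM. Both sums overlapped. HOXA9, a driver of leukaemic self-renewal, had the smallest SE of these genes: 15.7, 15.1 and 13.9 CPM against 14, 14.1 and 16.0 CPM, log2 fold change -0.02 ± 0.10 (SE). Other genes were less precise, with HOXA13 at -1.12 ± 0.80 and HOXC5 at -0.69 ± 0.295 (log2, SE). A change in such genes could go uncalled. HOXA10, of the uterine and haematopoietic programs, had 7.04, 7.77 and 7.6 CPM against 8.19, 8.16 and 8.5 CPM, the one HOX gene with every knockout library higher, without passing the test (log2 fold change 0.15, edgeR adjusted p = 0.438). In all, 12 of the 29 genes tested had every H1299 knockout library lower and 1 had every one higher, beside 14.5% and 15.6% of all genes tested, 30.1% together.

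**Figure D3:**
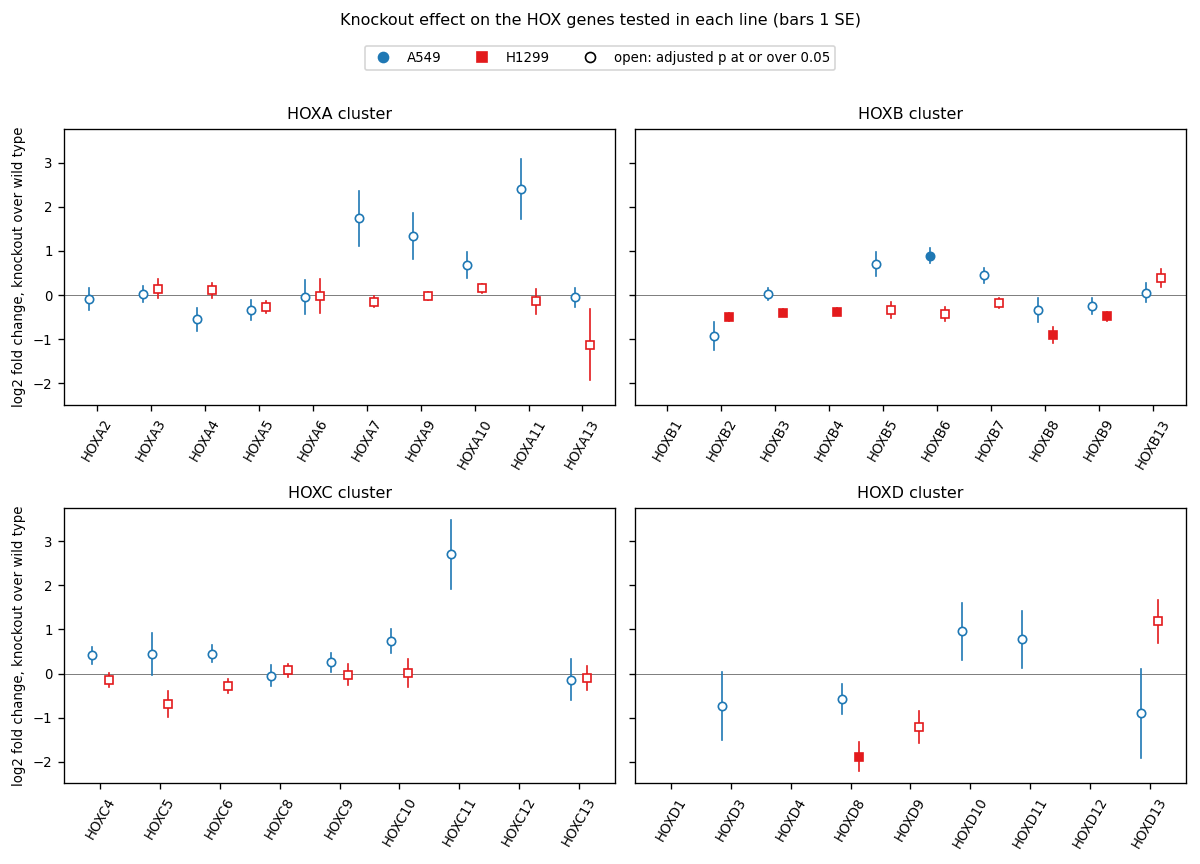
Log2 fold change of knockout over wild type, with 1 SE, for each HOX gene tested in A549 (circles) and H1299 (squares), by cluster; filled symbols have an edgeR adjusted p under 0.05. The H1299 values of HOXB2 to HOXB9 lie below 0, the A549 values of HOXA7 to HOXA11 and HOXB5 to HOXB7 lie above 0, and HOXD8 in H1299 is at -1.88.

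In A549 the picture differed: 1 gene, HOXB6, passed the test and it rose. It was 1 of 32 HOX genes tested, 3.12%, beside 2.14% of all genes called in A549, 0.99% higher and 1.15% lower. HOXB6, a gene of the middle of the cluster, had 7.44, 7.46 and 6.66 CPM in wild type and 12.2, 16.1 and 12.3 CPM in knockout. The groups did not overlap, and the log2 fold change was 0.90 ± 0.17 (SE; edgeR adjusted p = 0.0468). The call sits at the threshold: it was kept in 7 of 14 alternatives and lost under limma-voom (adjusted p = 0.0521) and whenever 1 library was left out, where the log2 fold change ranged from 0.76 to 0.98. Both neighbours had higher values in every knockout library, without passing the test. HOXB5 had 4.41, 3.34 and 2.8 against 4.69, 7.78 and 4.98 CPM (log2 fold change 0.71, edgeR adjusted p = 0.205), and HOXB7 had 15.9, 11.8 and 13.6 against 19.9, 20.1 and 16.8 CPM (0.45, edgeR adjusted p = 0.188). HOXB-AS3, which shares 16.3% of the exonic bases of HOXB6, had 9.96, 10.6 and 9.29 against 13.6, 16.6 and 13.6 CPM (0.54, edgeR adjusted p = 0.116).

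The flanks of the HOXB cluster in A549 did not follow its middle. HOXB2 had 3.15, 1.47 and 2.13 CPM in wild type and 1.07, 1.11 and 1.37 CPM in knockout, lower in every knockout library but uncalled, with a log2 fold change of -0.92 ± 0.32 (SE; edgeR adjusted p = 0.166). In the 12-library fit it was called lower (-0.89, edgeR adjusted p = 0.0372). HOXB3 (15.6, 16.1 and 13.7 against 16.8, 15.3 and 14.6 CPM) and HOXB9 (27.9, 22.2 and 22.6 against 23.7, 22 and 16.0 CPM) overlapped. So did HOXB8 (17.8, 12 and 10.7 against 10.4, 14.4 and 7.71 CPM) and HOXB13 (7.0, 10.8 and 8.23 against 9.21, 10.3 and 7.86 CPM). HOXB4 stayed under 1 CPM in every A549 library, from 0.245 to 0.756 CPM in wild type and from 0.268 to 0.302 CPM in knockout, and was not tested in A549 alone.

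Along the HOXA cluster in A549, knockout values were higher over 1 stretch of genes. HOXA7, HOXA9, HOXA10 and HOXA11, which specify trunk, limb and reproductive tract, were higher in every knockout library, while HOXA4 and HOXA5 had log2 fold changes of -0.55 and -0.34, and none of the 11 genes of the cluster passed the edgeR test. An unadjusted p under 0.05 was reached by 5 of the 11, beside 19.1% of all genes tested in A549. HOXA7 had 0.252, 0.736 and 2.86 CPM in wild type and 4.82, 4.90 and 3.41 CPM in knockout, with a log2 fold change of 1.74 ± 0.63 (SE; edgeR adjusted p = 0.185). HOXA9 had 0.126, 0.196 and 0.616 CPM against 0.771, 1.04 and 0.647 CPM, and HOXA10 had 2.77, 3.49 and 5.99 CPM against 7.37, 6.51 and 6.1 CPM. HOXA11 had 0.126, 0 and 0.28 CPM against 0.737, 0.906 and 0.523 CPM. In each of the 4 genes wild-type library 3 was the highest of its group and the nearest to the knockout libraries. Leaving it out therefore has to raise these fold changes, and the calls without it are no support for them: HOXA7 (log2 fold change 3.08, edgeR adjusted p = 0.0176), HOXA9 (2.27, edgeR adjusted p = 0.049) and HOXA10 (1.08, edgeR adjusted p = 0.0397) then passed, and HOXA11 was at 3.57 (edgeR adjusted p = 0.0542). Calls over all genes went from 430 to 1016 in the same step. None of the 4 genes passed when any other library was left out. HOXA7 was at 1.29 (edgeR adjusted p = 0.249) without wild-type library 1 and at 1.45 (edgeR adjusted p = 0.397) without wild-type library 2. With no low-count filter and in the 12-library fit, HOXA7 (edgeR adjusted p = 0.0433 and 0.0386) and HOXA11 (edgeR adjusted p = 0.0357 and 0.0335) were called. The antisense RNAs over this stretch had the same order, with HOXA-AS3 at 1.2, 1.57 and 2.91 CPM against 4.69, 4.86 and 3.43 CPM; it covers 62.5% of the exonic bases of HOXA7, and their reads cannot be told apart with certainty.

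**Figure D4:**
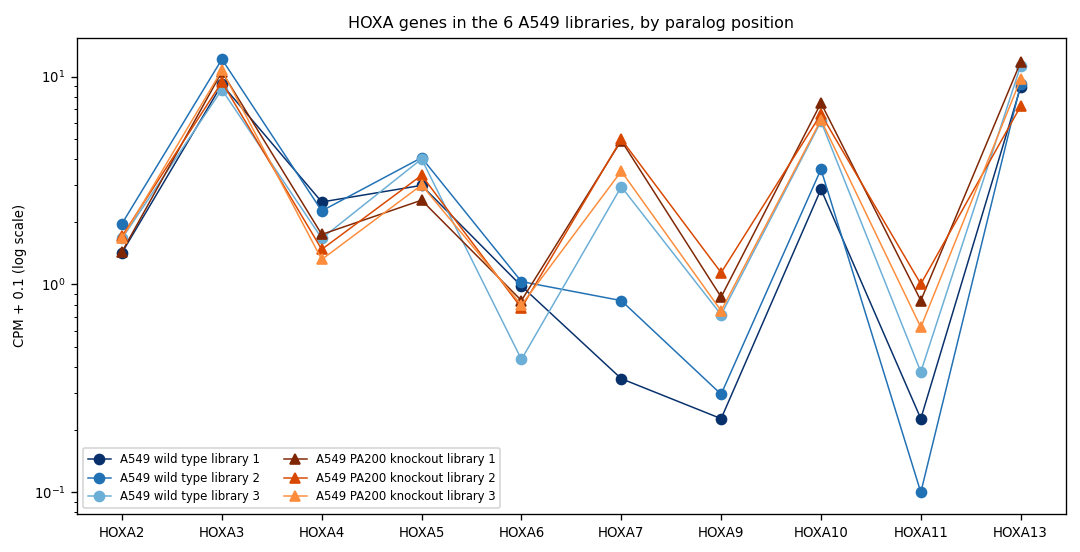
CPM + 0.1 (log scale) of the HOXA genes reported in the 6 A549 libraries, in the order of the cluster. The 3 knockout libraries (triangles) lie above wild-type libraries 1 and 2 from HOXA7 to HOXA11, with wild-type library 3 between them, and the libraries run together at HOXA3 and HOXA13.

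In the HOXC cluster of A549, 4 of 8 tested genes were higher in every knockout library and none passed the edgeR test. HOXC11, a hindlimb and kidney gene, was near the detection limit in wild type at 0, 0.0982 and 0.56 CPM and had 0.904, 2.31 and 1.24 CPM in knockout. Its log2 fold change was 2.70 ± 0.77 (SE; edgeR adjusted p = 0.113), and it was called with no low-count filter, by DESeq2, in the 12-library fit (edgeR adjusted p = 0.0254) and without wild-type library 3, its highest wild-type value (4.65, edgeR adjusted p = 0.0336). No other library left out gave a call, with adjusted p from 0.163 to 0.301. HOXC10 had 2.65, 3.24 and 1.959 against 3.28, 4.96 and 5.05 CPM, and HOXC6 had 4.29, 3.98 and 4.48 against 6.43, 6.20 and 5.002 CPM. HOXC4, which shares 17.8% of its exonic bases with HOXC6, had 4.1, 3.34 and 3.81 against 5.56, 4.93 and 4.65 CPM. These 3 genes did not overlap between groups and had log2 fold changes of 0.74, 0.45 and 0.42 (edgeR adjusted p = 0.187, 0.241 and 0.283). HOXC13, a hair and nail gene, was one of the most abundant HOX genes of A549 but spread widely, with 30.8, 23.8 and 6.44 CPM in wild type and 14.4, 22.3 and 19.0 CPM in knockout; wild-type library 3 was the lowest of the 6. In all, 11 of the 32 HOX genes tested had every A549 knockout library higher and 2 had every one lower, beside 13.5% and 12% of all genes tested, 25.5% together.

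No HOXD gene was called in A549, where 3 of the 5 tested had a log2 fold change below 0 and 2 above it. The median log2 fold change was -0.448 over all genes tested on 2q and -0.471 on 2p, the other arm of the chromosome. HOXD8 had 5.17, 4.32 and 7.17 CPM in wild type and 5.39, 3.62 and 2.31 CPM in knockout, overlapping, with a log2 fold change of -0.58 (edgeR adjusted p = 0.397) that became -0.12 once arms were centred. HOXD10, a limb and motor neuron gene, had 0.567, 1.28 and 1.51 CPM against 4.36, 1.61 and 0.747 CPM and overlapped too, with a log2 fold change of 0.96 (edgeR adjusted p = 0.464) that became 1.41 once arms were centred. Among genes beside the cluster, MTX2 fell in A549 (log2 fold change -0.74, edgeR adjusted p = 0.0457) and was at -0.29 (edgeR adjusted p = 0.322) after centring. The part of the arm-wide shift in single HOXD genes cannot be told apart from an effect on the genes themselves.

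The knockout effects of the 2 lines were set against each other in 1 fit over all 12 libraries. HOXB6 was the one HOX gene of 34 tested whose effect differed, at -1.34 ± 0.23 (log2, H1299 minus A549, SE; edgeR adjusted p = 0.00995), beside 3.48% of all genes called, 1.52% lower and 1.97% higher. It was above every wild-type library in all 3 A549 knockout libraries and below every wild-type library in all 3 H1299 knockout libraries, and the difference was called in 20 of 20 alternatives. These include the looser threshold of an adjusted p under 0.1 in the same fit, which could not remove a call. The overlapping HOXB-AS3 also differed, at -0.86 ± 0.17 (log2, SE; edgeR adjusted p = 0.0176). For the genes called in H1299, the differences did not pass the test: HOXB2 was at 0.39, HOXB3 at -0.44, HOXB4 at 0.35, HOXB8 at -0.59, HOXB9 at -0.24 and HOXD8 at -1.32 (edgeR adjusted p = 0.527, 0.114, 0.705, 0.419, 0.605 and 0.184). The falls in H1299 were thus not shown to be absent in A549. HOXA7 (-1.90), HOXA9 (-1.37) and HOXA11 (-2.54) had edgeR adjusted p = 0.109, 0.114 and 0.0805. All 3 were called by DESeq2 and without A549 wild-type library 3, and none of them when any other library was left out. Genes of other clusters lay as near the threshold. HOXC11 (-5.45), HOXB7 (-0.64) and HOXB5 (-1.07) had edgeR adjusted p = 0.0807, 0.0847 and 0.103. In H1299, HOXC11 had 9 counts in wild type and 1 in knockout.

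Most HOX genes separated the 2 lines whatever the genotype. Between wild-type lines, 14 of 34 tested genes were higher and 9 lower in H1299, 67.6% in all, beside 65.6% of all genes tested (31.8% higher, 33.7% lower), a share close to the background. Between knockout lines, 14 were higher and 13 lower, 79.4% beside 68% of all genes. Line, deposited table and any batch cannot be told apart in these comparisons. A total of 22 genes were called in both genotypes, all 22 in the same direction, and over the 34 genes the line differences of the 2 genotypes, which share no library, had a Pearson r of 0.908 and a Spearman rho of 0.883 as a description across genes.

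Anterior HOXB was the main block of H1299. HOXB4 had 34.4 to 35.9 CPM there and 0.245 to 0.756 CPM in A549 wild type, a log2 fold change of 6.23 ± 0.22 (SE; edgeR adjusted p = 1.187e-10) in wild type and 6.58 ± 0.22 in knockout. HOXB2 differed by 4.37 ± 0.21 (SE; edgeR adjusted p = 1.871e-09) and HOXB3 by 1.85 ± 0.10 (SE; edgeR adjusted p = 7.52e-09). HOXB7, a proliferative factor in several carcinomas, was also higher in H1299, by 1.31 ± 0.14 (SE; edgeR adjusted p = 2.54e-06). Of the posterior HOXB genes, HOXB8 and HOXB13 went the other way and HOXB9 did not. HOXB8 was lower in H1299 by -2.54 ± 0.25 and HOXB13 by -2.02 ± 0.22 (SE; edgeR adjusted p = 1.451e-06 and 3.493e-06). HOXB5, HOXB6 and HOXB9 were not called in wild type (log2 fold changes of 0.07, 0.22 and 0.07; edgeR adjusted p = 0.829, 0.249 and 0.711), whereas in knockout HOXB5 (-1.002) and HOXB6 (-1.12) were lower in H1299 (edgeR adjusted p = 0.00194 and 4.085e-05). These values depend on the arm: with arms centred, the median of the 9 tested HOXB genes went from 0.22 to 0.90 in wild type, and all 9 were called. In knockout, HOXB5 then lost its call at -0.31 (edgeR adjusted p = 0.246), and HOXB6 was at -0.43 (edgeR adjusted p = 0.029).

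The HOXA cluster split between the lines as well. The anterior genes HOXA2 and HOXA3 and the last gene HOXA13 were higher in A549, and HOXA7, HOXA9 and HOXA11 were higher in H1299. HOXA7 was expressed in A549 too, at a mean of 1.28 CPM in wild type and 4.38 CPM in knockout. HOXA3, used in pharyngeal and thymus development, had 9.08, 12 and 8.56 CPM in A549 wild type and 1.06, 0.946 and 0.8 CPM in H1299 wild type, a log2 fold change of -3.39 ± 0.19 (SE; edgeR adjusted p = 7.686e-09). In knockout it had 10.5, 9.32 and 10.7 CPM in A549 and 1.0, 1.11 and 1.0 CPM in H1299. HOXA2 had 1.32, 1.87 and 1.57 CPM in A549 wild type, 1.34, 1.61 and 1.57 in A549 knockout, 0.264, 0.459 and 0.4 in wild-type H1299 and 0.13, 0.0412 and 0.22 in the H1299 knockout. No H1299 library reached an A549 library for either gene. HOXA13 had 8.83, 9.08 and 11.2 CPM in A549 wild type and 0.33, 1.72 and 0.0889 CPM in H1299 wild type (log2 fold change -3.65 ± 0.56, SE; edgeR adjusted p = 7.154e-05), with 11.7, 7.11 and 9.63 CPM and 0.389, 0.165 and 0.47 CPM in the knockouts. In the opposite direction, HOXA9 was 5.54 ± 0.33 higher in H1299 wild type (log2, SE; edgeR adjusted p = 1.054e-08), HOXA11 was 3.62 ± 0.58 higher and HOXA7 3.12 ± 0.47 higher (edgeR adjusted p = 0.000106 and 6.186e-05). HOXA7 reached 9.58, 12.4 and 11.6 CPM in H1299 wild type and 10.1, 10.1 and 10.3 CPM in H1299 knockout, and HOXA11 reached 1.55, 2.29 and 1.02 against 1.23, 1.53 and 1.76 CPM. In knockout the differences of HOXA7 and HOXA11 were 1.21 and 1.07 (edgeR adjusted p = 0.0161 and 0.0307).

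HOXA4 and HOXA5 were used by both lines. HOXA4 had 2.4, 2.16 and 1.57 CPM in A549 wild type, 1.64, 1.38 and 1.22 in A549 knockout, 3.9, 3.67 and 3.2 in wild-type H1299 and 3.3, 4.7 and 3.73 in the H1299 knockout. It was higher in H1299 by 0.82 ± 0.22 (log2, SE; edgeR adjusted p = 0.00486) in wild type. HOXA5 had 2.9, 3.98 and 3.92 CPM in A549 wild type, 2.45, 3.25 and 2.91 in A549 knockout, 4.92, 4.7 and 4.44 in wild-type H1299 and 3.47, 4.33 and 3.95 in the H1299 knockout. Its line difference was called in knockout (0.45, edgeR adjusted p = 0.0414) and not in wild type (0.38, edgeR adjusted p = 0.0828). With arms centred it was called in both, at 0.83 in knockout and 0.77 in wild type (edgeR adjusted p = 0.00107 and 0.00209).

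In HOXC, HOXC4, HOXC6, HOXC8 and HOXC10 were higher in H1299, and the last gene, HOXC13, was higher in A549. HOXC8, a trunk gene, had 7.12, 5.94 and 4.31 CPM in A549 wild type, 6.73, 5.30 and 4.93 in A549 knockout, 17.4, 16.7 and 12.8 in wild-type H1299 and 18.6, 13 and 17.6 in the H1299 knockout. HOXC4, HOXC6, HOXC8 and HOXC10 were higher in H1299 wild type by 1.31, 1.68, 1.44 and 2.03 (log2; edgeR adjusted p = 3.403e-05, 3.664e-06, 5.589e-05 and 0.000236). HOXC4 reached 9.68, 9.0 and 9.07 CPM in H1299 wild type and 8.48, 6.39 and 10.3 CPM in H1299 knockout, and HOXC6 reached 13.9, 13 and 14 against 12.6, 8.21 and 12.8 CPM. HOXC10 was the most variable of them in H1299, with 11.6, 14.4 and 6.13 CPM in wild type and 11.3, 6.56 and 14.5 CPM in knockout. HOXC9 did not separate the lines, with 4.41, 4.07 and 4.2 CPM in A549 wild type, 4.42, 6.51 and 4.38 in A549 knockout, 3.67, 5.07 and 3.07 in wild-type H1299 and 3.34, 3.22 and 5.14 in the H1299 knockout. HOXC13 had 0.859, 1.4 and 0.978 CPM in H1299 wild type and 0.777, 1.11 and 1.19 CPM in H1299 knockout, below every A549 library, with a log2 fold change of -4.21 ± 0.48 (SE; edgeR adjusted p = 5.117e-06). HOXC11 had 146 counts in the A549 knockout and 1 in the H1299 knockout, a ratio of 127 (95% counting interval 22.5 to 5060). In wild type it had 12 and 9 counts, and the line difference was not called (log2 fold change -1.09, edgeR adjusted p = 0.325).

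In HOXD, HOXD9 belonged to H1299 and HOXD10 and HOXD11 to A549. HOXD9 had 0.063, 0.295 and 0.224 CPM in A549 wild type and 0.369, 0.101 and 0.0995 CPM in A549 knockout, below every H1299 library, and was higher in H1299 wild type by 3.62 ± 0.57 (log2, SE; edgeR adjusted p = 8.61e-05). HOXD10 had 62 counts in A549 wild type and 0 in H1299 wild type, so it was at least 33.5-fold lower in H1299, taking 3 counts in the empty group as its upper limit. HOXD11, which shares 21.4% of its exonic bases with HOXD10, had 30 and 0 counts and was at least 16.2-fold lower. In knockout HOXD10 had 208 counts in A549 and 1 in H1299, a ratio of 181 (95% counting interval 32.2 to 7190). HOXD8 was lower in H1299 by -0.85 in wild type and -2.17 in knockout (log2; edgeR adjusted p = 0.0444 and 0.00022). The wild-type call was lost in 5 of 14 alternatives: with no TMM scaling, and without wild-type library 1 or 3 of either line.

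Set side by side by paralog position, and with no test by position, the line differences between wild types were as follows. Among the paralogs of position 13, HOXA13, HOXB13 and HOXC13 were all lower in H1299 wild type and HOXD13 was not called. Among those of position 4, HOXA4, HOXB4 and HOXC4 were all higher in H1299, and HOXD4 was too sparse to test. At position 9, HOXA9 and HOXD9 were higher in H1299 while HOXB9 and HOXC9 were not called. At position 8, HOXC8 was higher while HOXB8 and HOXD8 were lower, HOXD8 close to the threshold (edgeR adjusted p = 0.0444). At position 3, HOXB3 was higher, HOXA3 lower and HOXD3 not called, and at position 2, HOXB2 was higher and HOXA2 lower. HOXA7 and HOXB7 were both higher, as were HOXA10 and HOXC10 while HOXD10 was lower. HOXA11 was higher, HOXD11 lower and HOXC11 not called. At position 6 HOXC6 alone was called, higher, and at position 5 no gene was called. With arms centred, HOXA5, HOXB5 and HOXC5 were called higher as well (0.77, 0.74 and 1.03, edgeR adjusted p = 0.00209, 0.0146 and 0.0347). So were HOXB6 (0.90, edgeR adjusted p = 0.000337) and HOXB9 (0.74, edgeR adjusted p = 0.0006135).

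**Figure D5:**
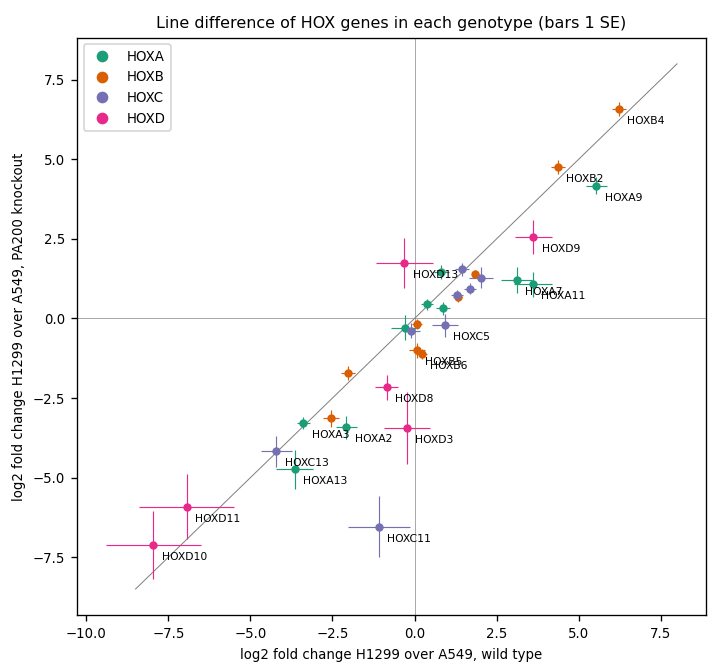
Log2 fold change of H1299 over A549 in wild type (x axis) against the same in the PA200 knockout (y axis) for the HOX genes tested and reported, coloured by cluster, with 1 SE on each axis and the line of equal values. Most genes lie near that line; HOXB4 is highest on both axes, and the fitted values of HOXD10, HOXD11 and HOXC11 depend on the prior count because a group had 0 or 1 count.

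A total of 10 genes stayed under a mean of 1 CPM in every group: HOXA6, HOXB1, HOXC5, HOXC12, HOXD1, HOXD3, HOXD4, HOXD11, HOXD12 and HOXD13. HOXB1, the hindbrain gene at the anterior end of HOXB, had no count in any of the 12 libraries. HOXC12 had no count in H1299 and at most 0.063 CPM in A549, and HOXD12 reached at most 0.0335 CPM. HOXA6 lay between 0.314 and 0.933 CPM in all libraries and was called in none of the 5 comparisons. HOXC5 lay between 0.147 and 0.688 CPM, and HOXD1 did not pass 0.189 CPM.

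Genes that act with or on HOX genes are given beside the same shares of all genes called, 2.14% in A549 and 8.84% in H1299. Of the HOX cofactors of the PBX, MEIS and PKNOX families, which bind DNA together with HOX proteins, 0 of 8 in A549 and 0 of 6 in H1299 passed the edgeR test, with MEIS1 (log2 fold change -0.72, adjusted p = 0.118) and MEIS2 (0.60, adjusted p = 0.158) nearest to it in A549, and PBX3 (-0.16, adjusted p = 0.304) and MEIS1 (-0.22, adjusted p = 0.432) in H1299. Of 27 Polycomb genes, 0 passed in A549, where PCGF1 was at -0.94 (edgeR adjusted p = 0.0601) and CBX7 at -0.73 (edgeR adjusted p = 0.183). In H1299, 2 rose and 1 fell: BMI1, a core subunit of Polycomb complex 1, by 0.34 ± 0.06 (log2, SE; edgeR adjusted p = 0.0162), MTF2, which recruits Polycomb complex 2 to CpG islands, by 0.34 ± 0.08 (edgeR adjusted p = 0.0328), and PHC3 by -0.32 ± 0.07 (edgeR adjusted p = 0.0245). BMI1 went from 66.6 ± 1.94 to 83.9 ± 0.426 CPM (SD, n = 3). The MTF2 call was lost after arms were centred (0.20, edgeR adjusted p = 0.0817).

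Of 14 Trithorax and H3K27 demethylase genes, 0 passed in A549, with DPY30 (-0.64, edgeR adjusted p = 0.113) and KDM6B (-0.50, edgeR adjusted p = 0.214) nearest. RBBP5, a subunit of the KMT2 methyltransferases, fell in H1299 (-0.35 ± 0.09, SE; edgeR adjusted p = 0.0396) but was at -0.06 (edgeR adjusted p = 0.704) with arms centred, and ASH1L was at -0.30 (edgeR adjusted p = 0.052). None of 8 insulator and cohesin genes passed in either line; RAD21 was at -0.25 (edgeR adjusted p = 0.296) in A549 and 0.25 (edgeR adjusted p = 0.171) in H1299, CTCF at 0.22 (edgeR adjusted p = 0.345) in A549, and SMC1A at 0.09 (edgeR adjusted p = 0.427) in H1299. In the retinoic acid pathway 1 of 14 genes passed in A549: the receptor gene RARG fell from 30.3 ± 5.3 to 14.6 ± 1.59 CPM (SD, n = 3; log2 fold change -1.06 ± 0.17, SE; edgeR adjusted p = 0.0288), while RDH10, which makes retinal, was at 0.63 (edgeR adjusted p = 0.0618). None of 8 passed in H1299, where DHRS3 was at -0.81 (edgeR adjusted p = 0.109) and RDH10 at 0.25 (edgeR adjusted p = 0.189). Of 9 ParaHox and CDX relatives 1 was expressed enough to test, MNX1, at 0.35 in A549 and -0.32 in H1299 (edgeR adjusted p = 0.416 and 0.403).

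Of the non-coding RNAs of the clusters, 0 of 13 passed in A549 and 2 of 15, HOXB-AS1 and HOXD-AS2, fell in H1299, beside 2.14% of all genes called in A549 and 4.18% called lower in H1299. Of the genes that flank the clusters, 0 of 8 passed in H1299 by edgeR, with HIBADH at -0.26 (edgeR adjusted p = 0.179), CALCOCO1 at -0.20 (edgeR adjusted p = 0.37), and CALCOCO2, near HOXB, at -0.09 (edgeR adjusted p = 0.545). In A549, 1 of 10 fell (MTX2), and TTLL6, next to HOXB13, was at -0.91 (edgeR adjusted p = 0.0669).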

How the data were processed

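Poly-A RNA of 12 libraries was measured by RNA-seq. The authors deposited raw counts per gene, in a table for each line, over the same 59050 symbols. A stranded mRNA kit and an RNA input of 1 µg were used, per the labels' protocols. The submitters' processing notes name bcl2fastq 2.20.0.422 and the genome GRCm38.p6, which is a mouse assembly; the symbols are human. Aligner, read counter and strand setting are not given in the sources used here. Mitochondrial transcripts had 0 counts throughout.

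Counts were analysed in R 4.3.3 with edgeR 4.0.16: filterByExpr with its minimum count of 10, TMM scaling, the quasi-likelihood test, and Benjamini-Hochberg adjustment over all genes tested (20093 in A549, 20194 in H1299, 22635 over all libraries). A gene is called, risen or fallen at an adjusted p under 0.05. The SE of a log2 fold change is its size divided by the square root of the quasi-likelihood F statistic. It is not an SE estimated directly by the fit. Knockout was compared with wild type over the 6 libraries of a line; line comparisons and the difference of knockout effects came from 1 fit over 12 libraries. With 3 against 3 libraries an exact two-sided permutation test cannot go below p = 0.1, so p-values rest on the model. CPM are TMM-scaled, and CPM per kb divide by the GENCODE 29 exon union. Symbols were matched to that annotation (GRCh38), where 56159 (95.1%) were found once. For centring, each library's median deviation on a chromosome arm with at least 30 expressed genes was removed. Bounds use 3 counts over a group; bounds and 95% intervals cover counting error only. Replicate libraries differed by more than sampling noise.

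Values in every library are given for genes with a mean of at least 1 CPM in any group or called in a knockout comparison, except 1 member that is counted but not reported here, and the 2 members with the smallest adjusted p of each related list are named; MTF2, CALCOCO2, HOXD13, HOTAIR and HOTTIP were added after values were seen. The members and lists were chosen with earlier results of these data known. HOXA10-HOXA9, HOXB-AS5, HOXB7-AS1 and KIAA1715 were not analysed here. Alternatives were RLE size factors, no TMM scaling, other filters, DESeq2 1.42.0, limma-voom (limma 3.58.1), arm centring, the 12-library fit, the 6 libraries of a line comparison alone, an adjusted p under 0.1, and each library left out. The fits were tested on simulated data.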

Additional observations from a re-analysis of the deposited data

Results flagged for a closer look

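The knockout effect on HOXB6 differed between the lines by a test of the difference itself, at -1.34 on the log2 scale (H1299 minus A549, SE 0.23; edgeR adjusted p = 0.00995). It rose in A549 (0.90) and was uncalled at -0.43 in H1299, with every knockout library on the opposite side of its wild-type libraries in the 2 lines. The overlapping HOXB-AS3, at 0.54 in A549 and -0.31 in H1299, moved with it, and the part of shared reads in the difference was not tested.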

How the results depend on the processing

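No paired analysis was possible because the labels give the libraries no replicate numbers. The count of HOX genes called in the A549 knockout (1) was 4 with no low-count filter, 2 by DESeq2, 0 by limma-voom (12 at an unadjusted p under 0.05 in edgeR) and 5 in the 12-library fit, and 0 to 4 with single libraries left out. Over all genes (430, of which 199 higher) it was 1275, 1543 by DESeq2, 1772 in the 12-library fit, 239 with arms centred (146 higher, 93 lower), and 10 to 1016. In H1299 the HOX count (6) was 1 in the 12-library fit and 2 to 7 with single libraries left out; over all genes (1786) it was 3077 with no filter (1336 higher, 1741 lower), 559 in the 12-library fit, and 471 to 1469. For the difference of effects the HOX count (1) was 4 at an adjusted p under 0.1, 4 with no filter, 7 by DESeq2, 3 by limma-voom, and 1 to 6; over all genes (788) it was 1615, 1239 with no filter, 1706 by DESeq2, 433 with arms centred (191 higher, 242 lower), and 310 to 1359. The line comparisons gave 22 to 28 HOX calls in wild type, 22 or 23 of them among the 23 reported, and 24 to 28 in knockout, 23 to 27 of them among the 27 reported. HOXB9 turned from -0.17 to 0.52 between knockout lines with arms centred. The cause of these changes was not tested. Low counts limit HOXD and HOXC11 and HOXC12, where few reads carry each value.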

Other observations

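HOTAIR, the antisense RNA between HOXC11 and HOXC12, was counted almost only in A549, with 0.126, 0 and 0.224 CPM in wild type and 0.268, 0.939 and 0.647 CPM in knockout. Every knockout library was higher there, in the same cells in which HOXC11 had higher values; in H1299 it was counted in 1 wild-type library, at 0.0287 CPM. HOTTIP, at the posterior end of HOXA beside HOXA13, had 0.252, 0.442 and 0.28 CPM in A549 wild type and 0.369, 0.201 and 0.373 CPM in A549 knockout, and 0.033, 0.0287 and 0 CPM in H1299 wild type, lower in H1299 as HOXA13 was. The microRNA rows MIR10A, MIR10B, MIR196B and MIR615 stayed under 0.1 CPM in all 12 poly-A libraries, as did MIR196A2, whereas MIR196A1 was counted in every library, at 0.112 to 0.533 CPM.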
